A study of Homo sapiens with 6 samples.

Results

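The genes described here are 10 genes used as markers around the dedifferentiated, invasive state of melanoma cells: the surface proteins AXL, NGFR, EGFR, NT5E and CDH2, and the transcription factors SOX9, ZEB1, ZEB2, SNAI2 and TWIST1. They were taken by gene symbol from the authors' deposited table, and all 10 were found among its 28395 genes. RNA-seq was carried out on A375 cells, an established human melanoma line labelled as wild type (WT), that had received 1 of 2 oils at 0.01% over 6 h. The control libraries are those of cells given olive oil (OLO), and the treated libraries those of cells given its ozonated form (OZO). Each group had 3 libraries, which the labels do not tie to separate cultures but the study describes as independent experiments, and untreated cells were not analysed here. The value used for each gene is the authors' mean of log2 CPM (counts scaled to the library's total) over all 6 libraries, so OLO and OZO libraries enter it together. The table's fold changes and p-values between OZO and OLO were not used. The values below are therefore levels in cells given either oil, with no comparison of the oils, no spread between libraries and no test.

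Melanoma cells can move between a pigmented state, driven by the lineage factor MITF, and a dedifferentiated state with little pigment gene expression, high receptor tyrosine kinase expression and greater motility. NGFR marks cells of neural crest type and AXL marks a more undifferentiated, drug-tolerant type. Factors of the epithelial to mesenchymal transition, which bind short DNA elements known as E-boxes and repress E-cadherin, are part of the same vocabulary, and in melanocytes ZEB2 and SNAI2 are usually linked with the differentiated state and ZEB1 and TWIST1 with the invasive one.

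The number of reads behind each mean was recovered from the table. The lowest mean, −5.20 log2 CPM, is that of genes with no read in any library, from which the libraries held 18409902 counted fragments each, as a geometric mean. A gene's distance from this lowest value gives the geometric mean of its reads over the 6 libraries, termed reads per library below. Levels of different genes are compared as reads per kilobase of the gene's longest transcript. Intervals of 95% are Poisson intervals computed on 6 times this geometric mean, since the total of reads is not known. They are therefore approximate and cover counting error only. How deep any 1 library was cannot be read from the table.

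All 10 markers were detected, from 25.7 reads per library for SNAI2 to 4915 for AXL, and a minimum of 10 reads per library was met by all of them and by 48.5% of all genes. Per kilobase the members spanned from 9.08 reads for SNAI2 to 1068 for CDH2. Their median was 138 reads per kilobase, against 28.6 over the 20525 genes with a read and a known length and 114 over the genes that met the minimum of 10 reads per library. Among genes with a read the members lay between the percentiles 39.9 (SNAI2) and 95.4 (CDH2), with AXL next to CDH2 at 95.2.

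**Figure D1:**
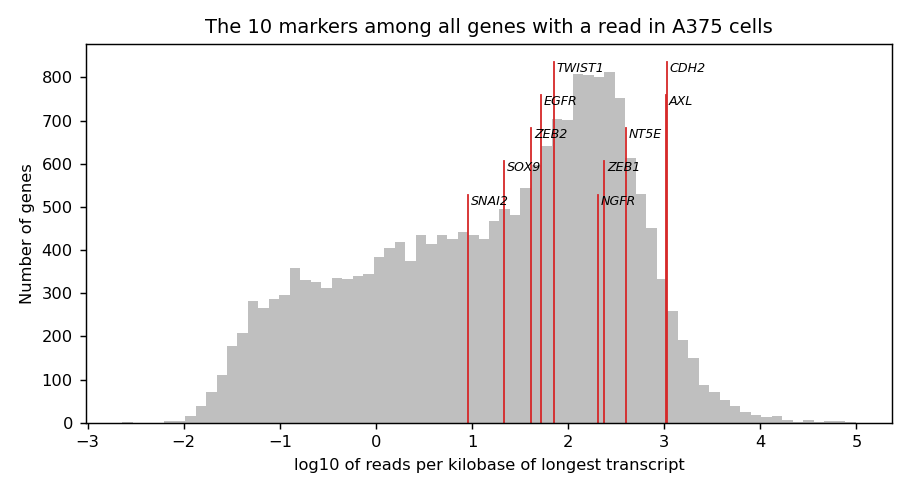
Number of genes (vertical axis) by log10 of reads per kilobase of longest transcript (horizontal axis) for the 20525 genes with a read, with a red line at each of the 10 markers. CDH2 and AXL lie in the upper tail, at 1068 and 1042 reads per kilobase, and SNAI2 is the lowest at 9.08.

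CDH2 (N-cadherin) mediates calcium-dependent adhesion between mesenchymal cells and lies on chromosome 18 (GRCh38.p14, 27932879 to 28177130). Its mean was 7.86 log2 CPM, or 4291 reads per library (4239 to 4344). At 1068 reads per kilobase, only 4.62% of genes with a read were higher. E-cadherin, encoded by CDH1 and characteristic of epithelial cells and melanocytes, had 1.34 reads per library, and its reads over all 6 libraries summed to at least 11. Per kilobase CDH2 was 3839-fold above CDH1, with a counting interval of 1951 to 8875. With the summed exons, the lowest of the 4 length measures, CDH2 was 2269-fold above CDH1. CDH1 enters these ratios by its geometric mean, which implies fewer than 11 reads in all. The ratios may therefore be too high, and the interval is approximate. CDH3 and CDH4 had 1.82 and 4.16 reads per library. CDH2 was therefore the only one of the 4 listed cadherins above 10 reads per library. Of the catenins that link cadherins to actin, CTNNA1 and CTNNB1 had 2664 and 1614 reads per kilobase, and JUP (plakoglobin) had 9.48.

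AXL is a receptor tyrosine kinase of the TAM family and lies on chromosome 19 (41219223 to 41261766). Its mean was 8.06 log2 CPM, or 4915 reads per library (4859 to 4972), the highest read number of the members. Per kilobase AXL had 1042 reads. Its paralogue TYRO3 had 51.9 reads per kilobase, so AXL was 20.1-fold higher (counting interval 19.3 to 20.9). Over the 4 length measures this fold was 11.7 to 24.7. MERTK, the remaining TAM receptor, had 2.87 reads per kilobase, and AXL was 363-fold higher (285 to 469). The mRNAs of both TAM ligands were present, at 94.0 reads per kilobase for PROS1 (protein S) and 29.4 for GAS6, the ligand with the highest affinity for AXL.

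NT5E (CD73) is a cell surface enzyme that converts AMP to adenosine and lies on chromosome 6 (85450083 to 85495784). Its mean was 6.40 log2 CPM, or 1555 reads per library (1524 to 1587) and 397 reads per kilobase. ENTPD1 (CD39), which supplies AMP by degrading ATP, had 144 reads per kilobase. NT5E was 2.75-fold above ENTPD1 per kilobase of longest transcript, but 0.784-fold per kilobase of coding sequence, so their order depends on the length used. Of the adenosine receptors, ADORA2B had 106 reads per kilobase, ADORA1 had 9.90 and ADORA2A had 0.918, and ADORA3 had no read, for which a 1-sided limit of 95% allows up to 3 reads over the 6 libraries.

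NGFR, the low-affinity neurotrophin receptor p75, lies on chromosome 17 (49495293 to 49515008). Its mean was 5.24 log2 CPM, or 696 reads per library (675 to 718) and 204 reads per kilobase. SORT1 (sortilin), a co-receptor of NGFR for pro-neurotrophins, had 159 reads per kilobase. Of the TRK receptor kinases, NTRK2 had 1.14 reads per kilobase, 180-fold below NGFR (counting interval 140 to 233, and 127 to 519 over the 4 length measures), and NTRK3 had no read. Among the ligands, BDNF had 10.2 reads per kilobase and NTF3 had no read. Of the genes named here, NGFR and SORT1 were those with more than 100 reads per kilobase.

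EGFR, the receptor of epidermal growth factor, lies on chromosome 7 (55019017 to 55211628). Its mean was 4.82 log2 CPM, or 520 reads per library (502 to 539). Its transcript is long, and per kilobase EGFR had 52.5 reads. ERBB3, a kinase-impaired partner receptor that melanocytes also express, had 139 reads per kilobase, 2.64-fold above EGFR (2.53 to 2.76), and 1.51-fold above it with the coding length. ERBB2 had 81.3 reads per kilobase, 1.55-fold above EGFR (1.47 to 1.63). Per kilobase of coding sequence EGFR was instead 1.35-fold above ERBB2. ERBB4 had 0.204 reads per kilobase.

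ZEB1 and ZEB2 are zinc finger homeobox repressors. ZEB1 (chromosome 10, 31318417 to 31529804) had a mean of 6.34 log2 CPM, or 1490 reads per library (1459 to 1521). ZEB2 (chromosome 2, 144384081 to 144520119) had 4.42 log2 CPM, or 393 reads per library (378 to 410). Per kilobase ZEB1 had 238 reads and ZEB2 41.1, a 5.81-fold difference (counting interval 5.55 to 6.08). The ratio was 4.17 to 11.4 over the 4 length measures tried, so ZEB1 was the higher of the pair under each.

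TWIST1 (chromosome 7, 19113047 to 19117636), a basic helix-loop-helix factor, had a mean of 2.66 log2 CPM, or 116 reads per library (108 to 125) and 71.2 reads per kilobase. Its paralogue TWIST2 had 56.5 reads per kilobase, and TWIST1 was 1.26-fold higher (1.12 to 1.42).

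SNAI2 (SLUG), a zinc finger factor of neural crest and melanoblast migration, was the lowest member at 0.51 log2 CPM and lies on chromosome 8 (48917598 to 48921429). It had 25.7 reads per library (21.8 to 30.1) and 9.08 reads per kilobase, and its reads over all 6 libraries summed to at least 160. SNAI1 (SNAIL) had 97.7 reads per kilobase, 10.8-fold above SNAI2 (9.07 to 12.8), and 6.59-fold above it with the coding length. SNAI3 had a single read in all: 1 read in 1 library. Among the 7 factors of the SNAI, TWIST and ZEB families, ZEB1 was highest, followed by SNAI1, TWIST1, TWIST2, ZEB2, SNAI2 and SNAI3.

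SOX9 (chromosome 17, 72121020 to 72126416), a SOXE factor of neural crest and cartilage, had a mean of 2.22 log2 CPM, or 85.0 reads per library (77.8 to 92.7) and 21.6 reads per kilobase. SOX10, the SOXE factor of the melanocyte lineage, had 265 reads per kilobase, 12.3-fold above SOX9 (11.2 to 13.4). SOX8 had 0.141 reads per kilobase. In these cells the lineage factor SOX10 was thus the more abundant of the pair at the mRNA level.

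**Figure D2:**
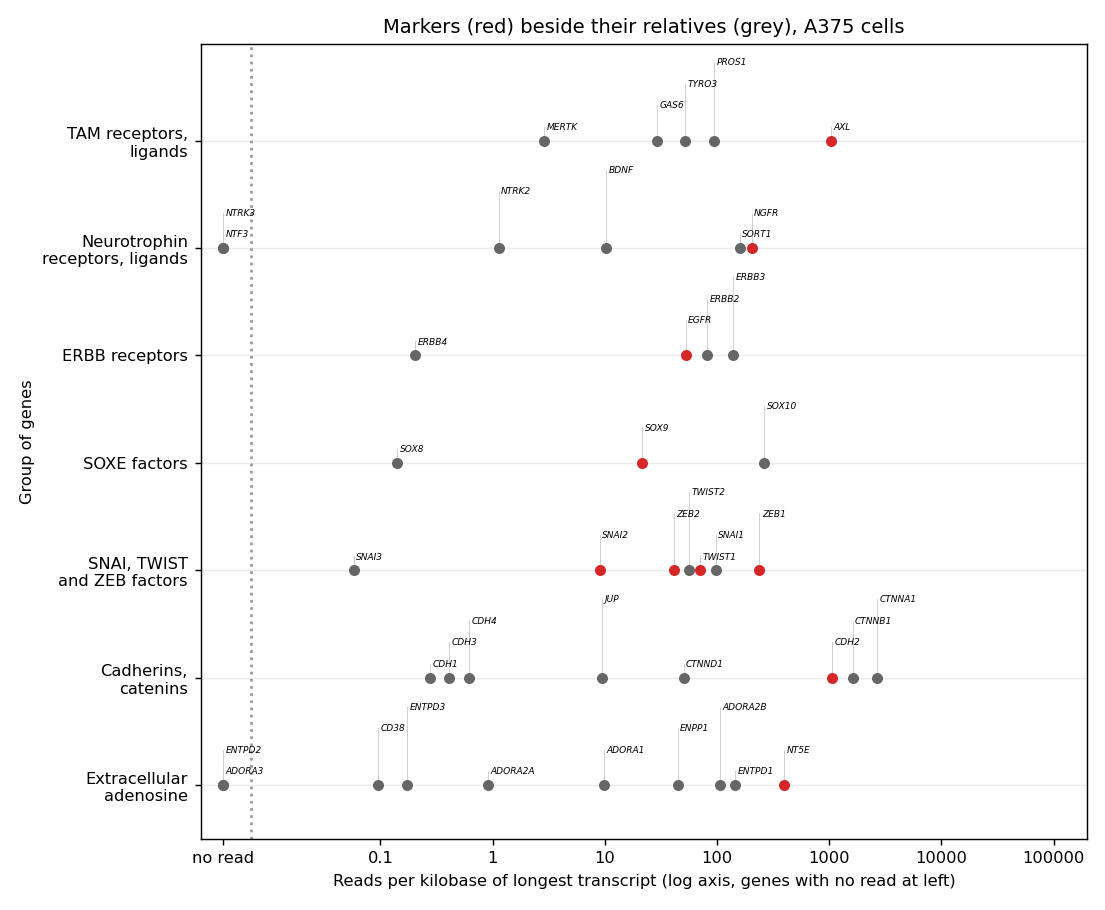
Reads per kilobase of longest transcript (log axis, genes with no read at the left of the dotted line) for the markers in red and the listed relatives in grey, 1 row per family. AXL and CDH2 are the highest receptor or cadherin of their rows, SOX9 lies below SOX10, and SNAI2 below SNAI1.

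Ordered per kilobase, the members were CDH2, AXL, NT5E, ZEB1, NGFR, TWIST1, EGFR, ZEB2, SOX9 and SNAI2. CDH2 exceeded AXL by 1.03-fold, with a counting interval of 1.01 to 1.04, and with the summed exons or the coding length AXL was the higher, so these neighbours are not told apart. ZEB1 exceeded NGFR by 1.17-fold (1.12 to 1.21), and their order turned with the coding length. ZEB2 exceeded SOX9 by 1.90-fold, and their order turned with the summed exons. The other neighbours kept their order under all 4 length measures, by 2.63-fold from AXL to NT5E, 1.66-fold from NT5E to ZEB1, 2.87-fold from NGFR to TWIST1, 1.36-fold from TWIST1 to EGFR, 1.28-fold from EGFR to ZEB2 and 2.38-fold from SOX9 to SNAI2. Whether any of these steps exceeds the spread between libraries was not tested.

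**Figure D3:**
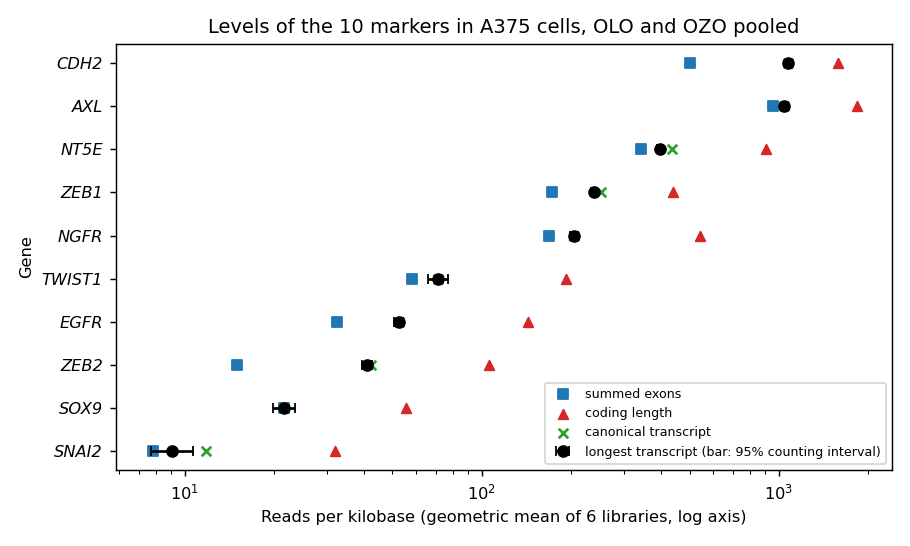
Reads per kilobase (log axis, geometric mean of 6 libraries) of each of the 10 markers with the length taken as the longest transcript (black, with 95% counting interval), the summed exons, the coding length or the canonical transcript. The choice of length moves ZEB2 most, between 15.0 and 106 reads per kilobase, and AXL least, between 957 and 1833.

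The promoters are shown because ZEB and SNAI factors bind the E-box CAGGTG, which reads CACCTG on the other strand. RefSeq promoters of GRCh38.p14 were found for 6 of the 10 members: AXL, CDH2, EGFR, NT5E, ZEB1 and ZEB2, with 15 start sites. The 250 bases before the start held CAGGTG on either strand at 3 of these 15 starts, and at 17.5% of all 35116 promoters in the table. ZEB1 alone has 7 of the 15 starts and 2 of the 3 with a match, and AXL has the remaining 1. The starts are therefore not separate genes. The first start of AXL held it with its first base 106 bases before the start, the first start of ZEB1 had it 57 bases before the start, and the first start of CDH2 had none. The AXL stretch is chr19:41218973-41219222 on the plus strand, that of ZEB1 is chr10:31318167-31318416 on the plus strand, and that of CDH2 is chr18:28177131-28177380 on the minus strand. They are given 5′ to 3′ with CAGGTG or CACCTG in capitals. A match describes the letters only, and binding was not measured.
AXL: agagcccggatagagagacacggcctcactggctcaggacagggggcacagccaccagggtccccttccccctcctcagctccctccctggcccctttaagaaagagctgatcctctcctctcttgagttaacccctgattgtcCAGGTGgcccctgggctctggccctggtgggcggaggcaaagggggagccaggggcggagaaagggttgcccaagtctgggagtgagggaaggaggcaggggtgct
ZEB1: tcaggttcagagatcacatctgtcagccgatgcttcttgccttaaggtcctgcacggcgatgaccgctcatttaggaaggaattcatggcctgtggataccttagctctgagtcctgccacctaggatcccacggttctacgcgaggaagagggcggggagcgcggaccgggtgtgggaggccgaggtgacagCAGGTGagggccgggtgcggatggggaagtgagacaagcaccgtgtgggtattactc
CDH2: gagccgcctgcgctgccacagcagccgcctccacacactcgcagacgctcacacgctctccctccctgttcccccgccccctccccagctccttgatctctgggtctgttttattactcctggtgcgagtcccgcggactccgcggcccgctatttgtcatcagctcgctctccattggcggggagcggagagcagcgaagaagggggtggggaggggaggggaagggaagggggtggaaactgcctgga

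The labelled cell type was checked against lineage genes. Of 15 melanocyte lineage genes, 7 (46.7%) had at least 10 reads per library, a share close to the 48.5% of all genes. The transcription factors were among them, with SOX10 at 265, MITF at 104 and PAX3 at 88.9 reads per kilobase, as were ERBB3 and the endothelin receptor EDNRB (38.3). MLANA and TYRP1 were at 15.7 and 3.81 reads per kilobase. The pigment genes PMEL, DCT, GPR143, SLC45A2 and OCA2 had between 0.778 and 3.36 reads per kilobase, KIT had 1 read in 1 library, and TYR, the rate-limiting enzyme of melanin synthesis, had no read, for which a 1-sided limit of 95% allows up to 3 reads over the 6 libraries. The melanocyte lineage list had a median of 3.36 reads per kilobase, against 138 for the 10 members.

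A list of 20 other genes of the invasive state had at least 10 reads per library throughout, against 48.5% of all genes. Its median was 541 reads per kilobase, against 28.6 over genes with a read and 114 over genes that met this minimum. VIM, the mesenchymal intermediate filament, was highest at 14300.4, and SPARC, a matrix protein, had 3056. The hyaluronan receptor CD44 had 2426 and FOSL1, an AP-1 subunit, had 1784. WNT5A, a ligand of non-canonical WNT signalling, had 113 reads per kilobase. The lowest were PDGFRB at 17.8, a gene also on the fibroblast list below, and NRG1 at 15.6. The members and this list were chosen around the same state, so their levels are not independent of each other as evidence. For scale, the 6 housekeeping genes ranged from 269 reads per kilobase for TBP to 47501 for GAPDH.

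Reads of genes on the opposite strand could enter a member only where strand was not used in counting, which is not given in the sources used here. The antisense gene ZEB1-AS1 had 36.8 reads per library, 2.47% of those of ZEB1. EGFR-AS1 had 1.90 reads per library, 0.366% of those of EGFR, and the reads of NGFR-AS1 were 0.216% of those of NGFR, while SOX9-AS1 and ZEB2-AS1 had no read. Only antisense genes with a member's name and the ending AS1 were looked up. These are reads assigned to the antisense genes, and how many opposite-strand reads were counted in a member was not tested.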

How the data were processed

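Strand-specific paired-end RNA-seq libraries of A375 cells, 3 given OLO and 3 given OZO, were analysed. Per the labels and the study's methods, the authors aligned reads to hg38 with HISAT2 2.1.0, counted reads per gene with featureCounts 2.1.1 and ran limma-voom 3.58.1. The deposited log2 values used here are each gene's mean log2 CPM, averaged by the authors across OLO and OZO libraries after voom's addition of 0.5 to every count. Scaling factors and filters are not given in the sources used here. Of the 28395 genes, 7012 had no read in any library, so genes without reads had been kept. The other 5 value columns hold the authors' fold changes, moderated statistics and p-values for OZO against OLO, and were not used.

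Where d is the distance of a gene's mean from the lowest mean, its geometric mean of counts plus 0.5 is 0.5 multiplied by 2 to the power d, and 0.5 was then removed. Raised to the 6 libraries, 2 to the power d can only be an odd integer, and for the 17133 genes low enough to check, 100% lay within 0.05 of one. The smallest total of reads with that product gave each minimum sum. A geometric mean does not exceed the arithmetic mean, so the reads are a lower estimate. In libraries simulated at the levels of 28395 genes, 17143 had products low enough to check, and 100% of these were recovered. The simulated means were built with the same formula and included genes with no read. The recovery therefore checks the arithmetic only, not whether the lowest mean of the deposited values is that of genes with no read. Lengths came from GENCODE 44 (longest transcript, with summed exons, coding length and canonical transcript as alternatives), since RefSeq transcript lengths, first planned, were not used here, and 26665 genes were matched. Coordinates are those of RefSeq on GRCh38.p14. Ratios have conditional binomial intervals, computed on the same multiples of the geometric means and so approximate. Python 3.11.15, scipy 1.17.1 and matplotlib 3.10.9 were used.

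The 10 members, the 13 lists of related genes and the pairs compared were chosen with earlier results of these data known. Named genes were the members whatever their values, list genes with at least 10 reads per library, and the highest and lowest of each list. CDH3, CDH4, ADORA2A, KIT, KRT5, TP63, PTPRC and the pigment genes with few reads were named outside this rule, after their values were seen, to complete each family. Some listed genes are not reported here.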

Additional observations from a re-analysis of the deposited data

How the results depend on the processing

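No paired analysis was possible because the values used are means over all 6 libraries. For the same reason limma on values per library, the replicate block and leaving out each replicate in turn were not run, and how far a single library decides a level was not tested. Of the 10 members, 6 kept their rank per length with the summed exons and 6 with the coding length. All 10 kept it with the canonical transcript, a choice made after the data were seen, and with 0.5 kept. Keeping 0.5 left the median of the members at 609 reads per library, against 608. Over all 28395 genes, 13773 met the minimum of 10 reads per library and 12063 a minimum of 30. With a minimum of 30 in place of 10 reads per library, 9 of the 10 members remained, 2 of 7 fibroblast markers in place of 4, and 1 of 8 immune and endothelial markers in place of 3. The counts of the other lists stayed within 1.5 times under minimums of 3 reads, 30 reads and 1 CPM. Percentile ranks moved with the set of genes: CDH2 lay at 95.4% of genes with a read, 96.4% of all genes and 93.0% of genes with at least 10 reads, and SNAI2 at 39.9%, 53.7% and 11.2%. For genes with few reads, such as CDH1, the ratios are known no better than their approximate counting intervals.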

Other observations

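Markers of other cell types had low median levels in these A375 libraries, with exceptions in each list. The medians were 0.630 (keratinocyte), 2.39 (fibroblast) and 0.114 (immune and endothelial) reads per kilobase. The median was 5.12 over all genes with a known length and 3.36 for the melanocyte lineage list. The shares with at least 10 reads per library were 37.5%, 57.1% and 37.5%. They were 48.5% over all genes and 46.7% for the melanocyte lineage list, so the shares did not set these lists apart. Of 8 keratinocyte markers, 3 had at least 10 reads per library: KRT10 at 217, DSC3 at 53.0 and KRT14 at 47.4 reads per kilobase. KRT14 has near-identical pseudogenes, so its count is uncertain. KRT5, the usual partner of KRT14, had 0.696 reads per kilobase, TP63 had 0.564, and KRT1 and LORICRIN had no read.

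Of 7 fibroblast markers, LUM had 32.8, PDGFRB 17.8, COL1A1 3.77 and PDGFRA 2.39 reads per kilobase, and these were the 4 with at least 10 reads per library. COL1A2, which encodes the partner chain of COL1A1 in type I collagen, had 1 read in 1 library. Of 8 immune and endothelial markers, LYZ (lysozyme) had 53.6, CD14 8.95 and PECAM1 2.86 reads per kilobase. PTPRC, the common leukocyte antigen CD45, had 0.149 reads per kilobase. The source of these reads was not tested.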
